A study of Eriocheir sinensis with 9 samples.

Results

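A group of 200 transcript isoforms rose stepwise with water temperature in eyestalks of Eriocheir sinensis, the Chinese mitten crab. Each was higher at 27 than at 22 °C and higher again at 32 than at 27 °C. They were chosen from their own abundance among 101114 isoforms with at least 1 FPKM in 3 or more of 9 RNA libraries, out of 267789 listed, and made up 0.198% of those 101114. FPKM is a fragment count divided by transcript length and by library size. For each isoform the lower step was the mean log2(FPKM + 1) at 27 °C minus that at 22 °C, and the upper step the mean at 32 °C minus that at 27 °C. An isoform entered the group when both steps were at least 0.6, every 27 °C value lay above every 22 °C value, and every 32 °C value lay above every 27 °C value. Exactly 200 isoforms met these conditions, so the limit of 200 removed none. Because all 9 libraries were used in the choice, the rises themselves are a description and carry no test.

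The study held crabs between molts, of wild-type genotype, at 25 °C before assigning them to 6 temperatures, 7, 12, 17, 22, 27 and 32 °C, in 3 parallel replicates of 16 crabs each. Libraries of 22, 27 and 32 °C were analysed here, 3 per temperature, with the temperature read from each library's title because the treatment field calls all 9 untreated. The labels do not give the length of exposure, the age of the crabs, or how many crabs went into a library, so the spread between libraries may be partly technical. The sample labels say eyestalk and DNBSEQ sequencing, whereas the series' own design text speaks of muscle and Illumina instruments.

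The crustacean eyestalk bears the compound eye, its visual ganglia and a neuroendocrine centre, the X-organ with the sinus gland, which releases peptide hormones acting on molting, metabolism and pigment. Crabs do not regulate their body temperature internally, so a change in water temperature reaches their tissues directly. Warming is known in many animals to raise transcripts of molecular chaperones, which help proteins fold. The isoforms of the deposited table carry numbers and no gene names. The gene table used here held 0 of these 267789 identifiers, so no role is given for any isoform, the tissue could not be checked against its defining markers, and several isoforms may belong to the same gene. Lists of heat shock proteins, other stress genes and eyestalk cell type markers could not be filled for the same reason.

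The libraries differed in ways that bear on a stepwise rise. The group mean of summed FPKM fell with temperature, at 2133568 ± 113129, 1960575 ± 30618 and 1865085 ± 169767 for 22, 27 and 32 °C (SD, n = 3 each). Single libraries did not follow this order throughout. Replicate 1 at 32 °C, at 2043049, lay above every 27 °C library and above replicate 3 at 22 °C, at 2007896. The number of sequenced reads is unknown. Replicate 1 at 32 °C stood apart from its group. Taken across isoforms, whose values are not independent of each other, its log2(FPKM + 1) profile had correlations of 0.754 to 0.761 to the libraries of 27 °C, and of only 0.731 and 0.738 to the remaining ones of its own temperature. The labels name no batch.

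The levels of the stepwise isoforms follow in direction from the rule, which asks for low values at 22 °C and high values at 32 °C. Only 81 of the 200 had at least 1 FPKM in every 22 °C library, and 86 had a mean under 1 FPKM there, so many met the minimum of 1 FPKM through the warmer groups. In replicates 1 to 3 their median FPKM was 0.95, 1.15 and 1.44 after 22 °C. It was 3.77, 3.93 and 4.03 after 27 °C, then 8.21, 10.3 and 8.83 after 32 °C. The median over all isoforms tested moved little beside this, between 2.01 and 2.53 FPKM in the 9 libraries. Ranked by group mean among all isoforms tested, the median member stood at percentile 24.1 at 22 °C and 84.8 at 32 °C, a description of the choice. Group means of at least 10 FPKM were reached by 13 members at 22 °C, 38 at 27 °C and 92 at 32 °C, or 6.50, 19.0 and 46.0% of them, against 13.4, 13.3 and 14.1% of all isoforms tested. In this bulk tissue, more RNA per cell and more cells of an expressing type cannot be told apart.

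**Figure D1:**
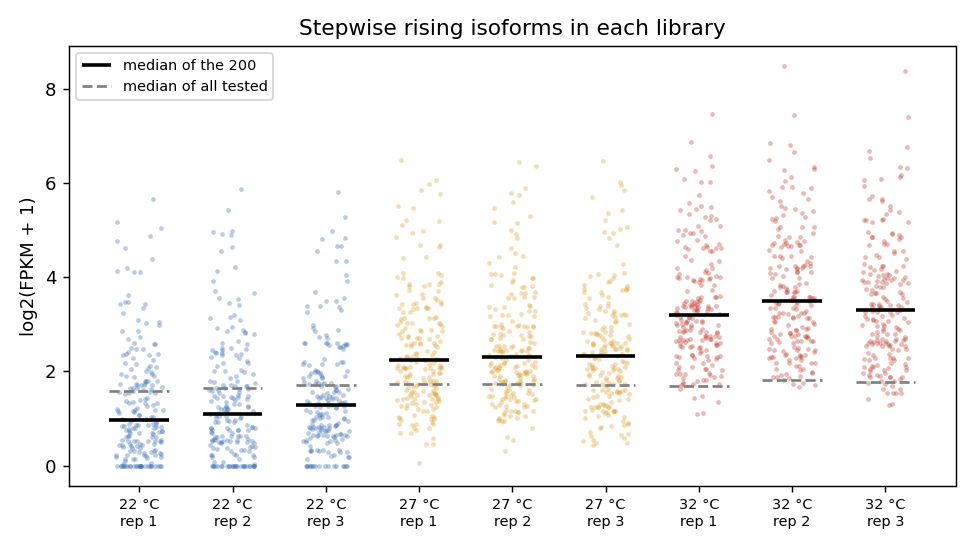
Abundance of the 200 stepwise rising isoforms in each of the 9 libraries, on the log2(FPKM + 1) scale, with 1 point per isoform. Black bars mark the median of the 200, at 0.95 to 1.44 FPKM in the 22 °C libraries and 8.21 to 10.3 FPKM in the 32 °C libraries, and dashed grey bars the median of all 101114 isoforms tested.

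Summed over the 200 isoforms, FPKM came to 615.4, 677.2 and 709.1 in replicates 1 to 3 of 22 °C. The sums were 1560, 1592 and 1488 for 27 °C, then 3037, 4023 and 3540 for 32 °C. The 3 groups did not overlap, a direction that the choice of isoforms fixes. As a share of each library's summed FPKM this was 0.0314% ± 0.0039, 0.0789% ± 0.0040 and 0.192% ± 0.0437 for 22, 27 and 32 °C (SD, n = 3 each). The stepwise isoforms were thus a very small part of the eyestalk RNA at every temperature. The 10 most abundant members of each library held 40.5 to 44.1% of the sum at 22 °C, 33.3 to 33.8% at 27 °C and 28.5 to 32.9% at 32 °C. The mean sum at 32 °C was 5.30 times that at 22 °C, and 6.19 times without the 10 members most abundant over all libraries.

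The member with the largest total rise was isoform_66881. Every 22 °C library listed it at 0. Replicates 1 to 3 gave 7.15, 4.13 and 13.88 FPKM after 27 °C, then 42.64, 68.32 and 60.36 FPKM after 32 °C. The lowest 32 °C value, in replicate 1, was more than 3 times the highest value at 27 °C. The mean level rose 6.81-fold from 8.39 ± 4.99 FPKM at 27 °C to 57.1 ± 13.1 FPKM at 32 °C (SD, n = 3 each). No fold change is given against 22 °C, where the isoform was listed at 0.

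The most abundant member was isoform_90126, whose replicates 1 to 3 gave 49.72, 57.41 and 54.8 FPKM after 22 °C. They gave 88.82, 86.37 and 87.81 FPKM after 27 °C, then 174.8, 355.99 and 331.51 FPKM after 32 °C. The 27 °C libraries agreed closely, and replicate 1 was the low library at 32 °C. Its group means were 54.0 ± 3.91, 87.7 ± 1.23 and 287.4 ± 98.3 FPKM (SD, n = 3 each), a rise of 1.62-fold from 22 to 27 °C and 3.28-fold from 27 to 32 °C. Its lower step of 0.69 on the log2(FPKM + 1) scale lay near the minimum of 0.6 and came to 0.52 after median-of-ratios scaling, a rescaling that sets the typical isoform equal between libraries.

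**Figure D2:**
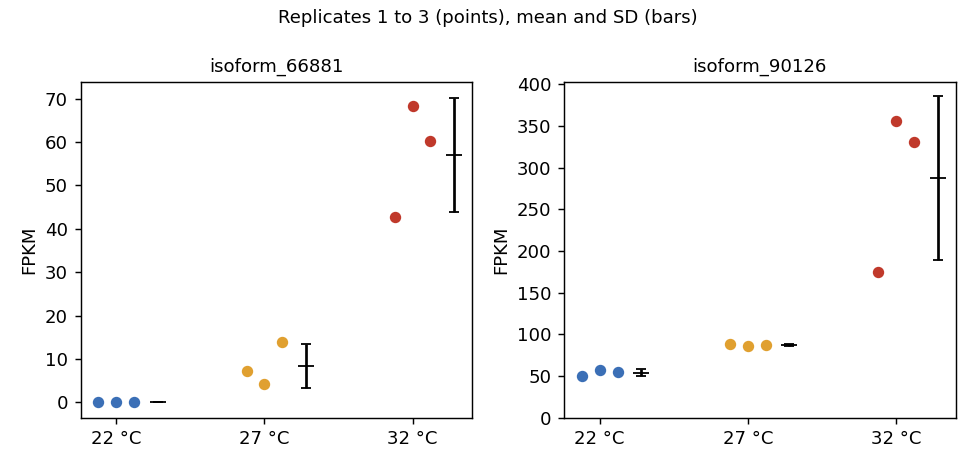
FPKM of isoform_66881 and isoform_90126 at 22, 27 and 32 °C, with replicates 1 to 3 as points from left to right and the mean with SD (n = 3) beside them. Replicate 1 is the lowest 32 °C library for both isoforms, at 42.64 and 174.8 FPKM, and still lies above every 27 °C value.

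Other members show how differently the same rule could be met. The second largest total rise belonged to an isoform with 0.2, 0 and 14.04 FPKM after 22 °C, 15.03, 54.04 and 32.24 FPKM after 27 °C, then 67.11, 54.21 and 67.04 FPKM after 32 °C. Its groups were separated by less than 1 FPKM at each step, between 14.04 and 15.03 and between 54.04 and 54.21. The third largest had 0.31, 0.55 and 0.55 FPKM after 22 °C, 1.08, 2.95 and 1.25 FPKM after 27 °C, then 17.24, 49.62 and 36.66 FPKM after 32 °C. That isoform had the largest upper step of the group, 3.63 on the log2(FPKM + 1) scale against 0.85 for its lower step. The second most abundant member rose more evenly, from 35.08, 30.16 and 37.73 FPKM after 22 °C through 56.48, 80.62 and 63.92 FPKM after 27 °C to 116.08, 173.03 and 168.51 FPKM after 32 °C.

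By level at 22 °C the members fell into 4 classes. Those listed at 0 in all 3 libraries at 22 °C numbered 9, with group means of 0.583 to 8.39 FPKM at 27 °C and 1.67 to 57.1 FPKM at 32 °C. A further 77 had a mean above 0 and under 1 FPKM at 22 °C, and class medians of 0.487, 1.76 and 4.37 FPKM at 22, 27 and 32 °C. The 84 members of 1 to under 5 FPKM had medians of 2.04, 5.29 and 11.8 FPKM, and the 30 members of at least 5 FPKM had medians of 9.58, 19.9 and 41.7 FPKM. In every class the typical member thus rose at both steps, as the rule requires. Of all 200, 46 were listed at 0 in at least 1 library at 22 °C, and 0 in any library at 27 or 32 °C. The rule fixes the latter count, since it places every warmer value above all 22 °C values. A listed 0 can stand for an estimate that failed, not only for missing RNA.

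The abundant end of the group was small. Group means of at least 50 FPKM at 32 °C were reached by 12 members, from 57.1 to 287.4 FPKM. The median of those 12 went from 23.8 to 42.1 FPKM between 22 and 27 °C, and only 1 of all 200 members, isoform_90126, had reached 50 FPKM at 22 °C.

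On the log2(FPKM + 1) scale the 2 steps had similar medians, and the rule's minimum of 0.6 bounds both from below. The lower step had a median of 0.92, with quartiles of 0.74 and 1.19 and a range of 0.60 to 3.56. On the same log2(FPKM + 1) scale, the second step, from 27 to 32 °C, had a median of 0.86, with quartiles of 0.72 and 1.20 and a range of 0.60 to 3.63. Over all isoforms tested the medians were 0.09 for the lower and 0.01 for the upper step. The lower step was the larger in 113 members and the upper step in 87. Both steps were under 1 in 82 members and at least 1 in 36, while 48 reached 1 over the lower step alone and 34 over the upper step alone. The log2(FPKM + 1) scale understates rises from levels near or below 1 FPKM, which touches the lower step most. With a pseudocount of 0.1 in place of 1, the median was 1.54 for the lower and 1.05 for the upper step. Which median was the larger also depended on scaling. It was that of the lower step with equal library sums (0.99 against 0.93) and after quantile normalization (0.88 against 0.83). After median-of-ratios scaling it was that of the upper step (0.84 against 0.81).

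**Figure D3:**
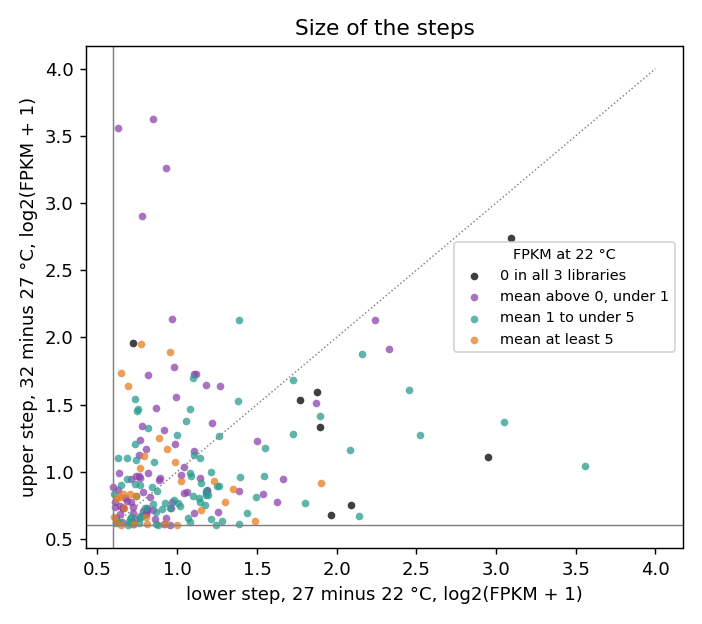
Upper step against lower step for the 200 isoforms, both as differences of group means in log2(FPKM + 1), coloured by level at 22 °C. Grey lines mark the minimum of 0.6 for each step and the dotted diagonal equal steps, with 113 isoforms below it and 87 above. The 27 °C libraries enter both axes with opposite sign.

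In FPKM rather than on the log scale the upper step was the larger in 192 of the 200 members. The median gain was 2.40 FPKM from 22 to 27 °C and 5.10 FPKM from 27 to 32 °C. Steps of equal size on the log scale give a larger gain in FPKM from the higher level at 27 °C. The rule's minimum for the upper step therefore favours this outcome, and nothing is read from it. Fold changes between group means were taken for the 81 members with at least 1 FPKM in every 22 °C library. Their median was 2.11-fold over the lower step, with a range of 1.50 to 4.57, and 1.88-fold over the upper step, with a range of 1.53 to 4.81. The fold was larger over the lower step in 51 of them and over the upper step in 30. From 22 to 32 °C they rose by a median of 4.21-fold, with a range of 2.39 to 16.2.

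A few members were strongly uneven. The upper step was more than 2 times the lower step in 11 members, whose median level went from 0.47 FPKM at 22 °C through 1.76 FPKM at 27 °C to 21.7 FPKM at 32 °C. The lower step was more than 2 times the upper step in 14 members, with medians of 1.56, 7.07 and 14.0 FPKM. A direct comparison of the steps, upper minus lower, in limma with Benjamini-Hochberg adjustment called 0 of the 200 members, against 0.13% of all isoforms tested. The lowest adjusted p among members was 0.211. At an unadjusted p below 0.05, limma called 9 members (4.50%), 4 with the larger upper and 5 with the larger lower step, against 10.7% of all isoforms tested. The rule admits no isoform whose steps go in opposite directions, while all isoforms tested include such isoforms, so nothing is read from these shares. It sets no upper bound on either step. With a pseudocount of 0.1 in place of 1, limma called 2 members, both with the larger lower step, against 49 of all isoforms in that direction.

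The separation between temperatures was often narrow. On the log2(FPKM + 1) scale the distance from the highest 22 °C value to the lowest 27 °C value had a median of 0.42 and ran from 0.0054 to 2.68. The distance from the highest 27 °C value to the lowest 32 °C value had a median of 0.40 and ran from 0.0044 to 2.48. One or both distances were under 0.1 in 48 members, and both were at least 0.6 in 18, among them isoform_66881. Values within a temperature spread by a median factor of 1.48 at 27 °C and 1.59 at 32 °C, highest over lowest, and the factor exceeded 2 in 41 and 44 members.

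The conditions of the rule removed very different numbers of isoforms. Both steps reached 0.6 in 1215 of the isoforms tested, and in 1015 of these the groups overlapped at one or both steps. Full order of all 9 values, with any step size, held for 947 isoforms, of which 747 had a step under 0.6. Every 27 °C value lay above every 22 °C value in 14.7% of all isoforms tested, every 32 °C value above every 27 °C value in 7.23%, and every 32 °C value above every 22 °C value in 14.8%. Just inside the rule were members with smaller steps of 0.6002, 0.6021 and 0.6022, and just outside were isoforms with 0.5990, 0.5989 and 0.5983, so no gap in the values marks the edge of the group.

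Calls came from limma's moderated test with Benjamini-Hochberg adjustment over all isoforms tested. At 32 against 22 °C, 177 of the 200 were called rising, against 0.908% of all isoforms. Over the lower step 17 were called rising, against 0.271%, and over the upper step 4, against 0.0722%. No member was called at both steps (0 of 200), 156 were called over the full range alone, and 23 in none of the 3 comparisons. For these combined counts no share over all isoforms was computed. At an unadjusted p below 0.05, limma called 181 members at the lower step against 9.42% of all isoforms and 182 at the upper step against 4.89%. These comparisons chose the members, so the counts describe how the group sits against the thresholds and support nothing. The 17 called over the lower step rose by 1.19 to 3.09 there on the log2(FPKM + 1) scale, and 6 of them were listed at 0 in all 3 libraries at 22 °C. The 4 called over the upper step rose by 1.72 to 3.63, and the standard error of a step had a median of 0.26 over the 200.

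The fitted changes of the 2 isoforms given by identifier come from the same values that chose them, so they are given with their standard errors and without p-values. Isoform_66881 had a lower step of 3.09 and an upper step of 2.74 on the log2(FPKM + 1) scale, each with a standard error of 0.38. Its lower step depends on the pseudocount, since every 22 °C library lists it at 0. Isoform_90126 had steps of 0.69 and 1.63, each with a standard error of 0.27.

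These counts depended on single libraries and on the fit, as did those over all isoforms tested. With only the groups compared in the fit, 78 members were called over the full range, 8 from 22 to 27 °C and 0 from 27 to 32 °C. Over all isoforms that fit called 272, 253 and 36 as rising, beside 918, 274 and 73 with all libraries in the fit. Without replicate 1, 2 or 3 at 22 °C the full range called 72, 77 and 104 members, against 204, 214 and 404 of all isoforms. Leaving out replicate 2 or 3 of 32 °C gave 84 and 92, against 234 and 327. The lower step called 2, 3 and 9 members without replicate 1, 2 or 3 at 22 °C, against 59, 76 and 207 of all isoforms. It called 3 without any single 27 °C library, against 69 to 86, and 11 without replicate 2 or 3 at 32 °C, against 220 and 229. The upper step called 9 without replicate 1 at 32 °C, against 168 of all isoforms. It called at most 1 without any other single library, against 31 to 60.

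Each library was also read against a choice that had not used it. The rule was applied to the other 8 libraries, and the isoforms chosen were then checked for whether the library left out lay in its ordered place, below all 27 °C values, above all 27 °C values, or between the other groups. Without replicate 1, 2 or 3 at 22 °C, 246, 227 and 283 isoforms met the rule, and the library left out lay below the 27 °C values in 80.1, 83.7 and 70.7% of them, against 35.3, 32.6 and 29.4% of all isoforms tested. Without a 27 °C library, 261, 261 and 248 met the rule, and it lay between the other groups in 70.9, 70.9 and 75.8%, against 3.33, 3.70 and 3.80%. Without replicate 1, 2 or 3 at 32 °C, 348, 214 and 312 met the rule, and it lay above the 27 °C values in 62.6, 78.5 and 67.3%, against 22.6, 30.5 and 26.3%. The lowest of the 9 shares was that of replicate 1 at 32 °C. The neighbouring group was part of each choice, which raises these shares above those of all isoforms even where a temperature has no effect, so they are given without a test.

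**Figure D4:**
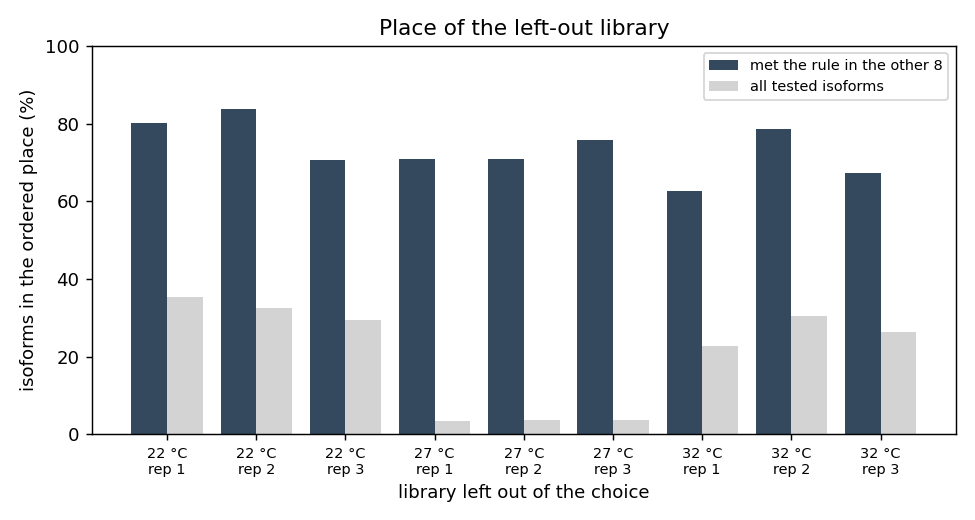
Percentage of isoforms for which the library left out lay in its ordered place, for the isoforms that met the rule in the other 8 libraries (dark bars) and for all isoforms tested (grey bars). Dark bars run from 62.6% for replicate 1 at 32 °C to 83.7% for replicate 2 at 22 °C.

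The rule did not use the order of libraries within a temperature, but it did use their values, so the choice can shape that order. Without replicate 2 at 32 °C, 165 of the 200 members met the rule, against 183 and 185 without replicate 1 or 3. Among the 198 members with 3 different values at 32 °C, replicate 2 was the highest in 59.6%, against 38.8% of all isoforms tested, and replicate 1 was the lowest in 47.0%, against 40.4%. At 22 °C replicate 3 was the highest in 47.8% of 180 members, against 40.5% of all isoforms. At 27 °C replicate 2 was the highest in 41.4% of 198 members, against 33.9%. Replicate 2 at 32 °C also had the lowest summed FPKM, 1704917, and its part in this order was not tested. After scaling to equal library sums it was the highest in 72.5% of the members and 49.0% of all isoforms, and after median-of-ratios scaling in 47.0 and 32.6%.

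Rises at both steps were about as frequent as falls in the deposited values, and less frequent than a turn at 27 °C. The mirrored rule found 195 isoforms that fell at both steps, beside the 200 that rose, so rises made up 50.6% of both. The same minimum and full separation held for 1091 isoforms highest at 27 °C and 928 lowest there. The conditions themselves favour turns. A turn places no demand on the coldest against the warmest group, while a rise or fall needs all groups in order. The 27 °C libraries also enter both steps with opposite sign, so noise in them favours turns. Nothing is therefore read from the larger number of turns, and no test compares these counts. The balance of rises and falls depended on scaling, which moved the median step of all isoforms tested. Scaled to equal library sums there were 291 rising and 141 falling isoforms, after median-of-ratios scaling 142 and 243, and after quantile normalization 153 and 203. Over these scalings the median lower step of all isoforms tested was 0.16, -0.03 and 0.03, beside 0.09 as deposited.

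**Figure D5:**
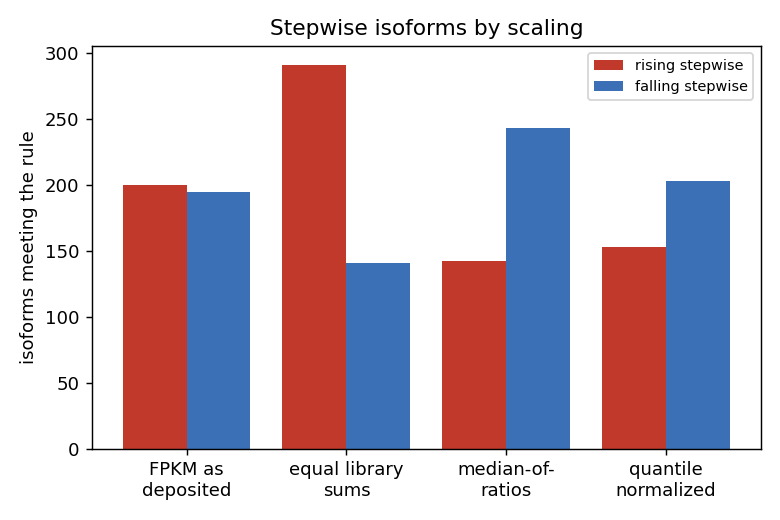
Number of isoforms rising (red) and falling (blue) at both steps by the same rule under 4 scalings of the libraries. The 200 rising and 195 falling isoforms of the deposited FPKM become 291 and 141 with equal library sums and 142 and 243 with median-of-ratios scaling.

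Which isoforms met the rule also varied with scaling. Of the 200, 198 met the rule again with equal library sums, 137 after median-of-ratios scaling and 148 after quantile normalization, and 125 met it under all 3. Those 125, which include isoform_66881 but not isoform_90126, had median steps of 1.05 and 0.93 on the deposited log2(FPKM + 1) scale. With each of the 9 libraries left out in turn, 103 members met the rule every time, both named isoforms among them, and 88 met it under all 3 scalings as well.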

How the data were processed

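Eyestalk RNA of 9 libraries was sequenced on the DNBSEQ platform after Trizol extraction, per the labels' protocols. The authors deposited FPKM, as the file headers name it, to 2 decimals. Bowtie2 and RSEM are named without versions in the submitters' processing notes, with nothing on settings, transcript set or filters. A genome build was not given in the sources used here. RSEM can divide reads between similar isoforms. Read depth is unknown, so no counting interval was computed.

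Columns were assigned by library name, with 0 left unused, and 0 pairs of libraries were identical. The members, lists and rules were chosen with earlier results of these data known. limma 3.58.1 in R 4.3.3 was fitted to log2(FPKM + 1) of all 9 libraries over 101114 isoforms, with a variance trend, two-sided tests and a Benjamini-Hochberg threshold of 0.05. It was tested on simulated data. The labels tie replicate numbers to no shared tank or day, so libraries were not paired. Deviations of same-numbered libraries correlated at -0.02 to 0.05, which cannot exclude a shared tank or day. Isoforms given by identifier were the member with the largest total rise and the most abundant member. The others are described by rank, and the 3 given library by library were picked after their values were seen. Alternatives covered the pseudocount, filter, scaling, step minimum, variance model, libraries in the fit, a replicate block and each library left out.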

Additional observations from a re-analysis of the deposited data

How the results depend on the processing

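The number of isoforms rising stepwise was 386 and 401 with pseudocounts of 0.1 and 0.01, 131 with a minimum of 5 FPKM, and 448 and 36 with a step minimum of 0.4 and 1, beside 200 as reported. It was 200 with no filter, and 167 after rescaling to TPM. It ranged from 214 to 348 with 1 library left out. Calls by limma over the lower step, 17 as reported, numbered 9 after rescaling to TPM and 8 with only the groups compared. They ranged from 2 to 15 with 1 library left out. Over all isoforms in those fits, 243, 253 and 59 to 352 were called rising, beside 274. Calls over the upper step, 4 as reported, numbered 2 with a pseudocount of 0.1 and 1 with a minimum of 5 FPKM. They numbered 0 with only the groups compared, and 0 to 9 with 1 library left out. Over all isoforms in those fits, 66, 28, 36 and 31 to 168 were called rising, beside 73. Calls over the full range numbered 78 with only the groups compared, beside 177, and ranged from 72 to 140 with 1 library left out. Over all isoforms these were 272, beside 918, and 204 to 589. The difference between steps called 2 members with a pseudocount of 0.1 and 0 in every other setting run. With the replicate block, limma called 2 members over the lower step, 0 over the upper step and 66 over the full range. Over all isoforms the block gave 36, 11 and 170 rising. The labels do not say whether same-numbered libraries share anything. Deviations correlated above 0.1 in 0 of 9 same-numbered pairs, and 3 of the 9 libraries correlated best with their own number in both other groups. These values cannot exclude a shared tank or day. The median lower step was 1.54 with a pseudocount of 0.1 and 0.77 after rescaling to TPM, beside 0.92, and the median upper step 1.05 with a pseudocount of 0.1, beside 0.86. After rescaling to TPM the median upper step was 0.82, above that of the lower step. Median-of-ratios scaling gave the same order (0.84 against 0.81). The summed FPKM at 32 over 22 °C was 6.12 with equal library sums, 4.67 after median-of-ratios scaling and 6.19 without the 10 most abundant members, beside 5.30. Replicate 2 was the highest library at 32 °C in 72.5% of members with equal library sums and 47.0% after median-of-ratios scaling, beside 59.6%. The alternatives for the summed FPKM (both scalings and leaving out the 10 most abundant members), the scalings for the order of libraries, and the equal sums elsewhere were chosen after seeing the data. A smaller pseudocount enlarges steps from low levels by its construction, and TPM lowers every value against a fixed pseudocount. For the other changes the cause was not tested. No rescaling made a median or named isoform's step negative. A smaller pseudocount or 1 library fewer cannot, by the rule. With 3 libraries per temperature and a median standard error of 0.26 per step, the smallest lower step called was 1.19 and the smallest upper step called 1.72 (limma, Benjamini-Hochberg).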
